A study of Homo sapiens with 13 samples.

Results

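The genes described here are 10 imprinted genes, selected by gene symbol from the 61546 features that both count tables list. They are H19, IGF2, CDKN1C, KCNQ1OT1, MEG3, DLK1, DIO3OS, PEG3, PEG10 and SNRPN. All 10 symbols were found in both tables. The cells were RUES2, a human embryonic stem cell line, carrying a GFP::SMAD4 fusion at the endogenous locus, and all 13 libraries came from this 1 tagged line. In the time series, cells received 100 ng/mL BMP4 and 5 µM IWP2, an inhibitor of Wnt secretion, and total RNA depleted of ribosomal RNA was sequenced at 0 h (2 libraries) and at 4, 12, 20, 28 and 42 h (1 library each). For 0 h, too, the labels give BMP4 and IWP2, and these 2 libraries were taken to be cells harvested at the start. In the dose response, BMP4 and IWP2 were given together with 0, 10, 30, 100 or 300 nM LDN, which inhibits BMP receptors, and polyA-selected RNA was sequenced at 5 h next to a library of untreated cells (1 library each). Per the labels, every library but the untreated one was also given RI, the ROCK inhibitor of the study's methods, while the untreated cells had mTeSR medium. BMP4, IWP2 and RI therefore cannot be told apart in any comparison with untreated cells.

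Imprinted genes are expressed mainly from the copy inherited from 1 parent, because DNA methylation laid down in the germ line differs between the maternal and the paternal copy. They lie in domains in which a differentially methylated control region, often with a long noncoding RNA, sets which copy of several neighbours is active. H19 and KCNQ1OT1 are the noncoding RNAs of neighbouring domains with IGF2 and CDKN1C, MEG3 is the maternally expressed noncoding RNA of the domain that runs from DLK1 to DIO3, and SNRPN is expressed from the paternal copy. Many of these genes act in growth of the fetus and in extraembryonic tissues. The counts used here do not separate the parental copies, so every value is the sum of both.

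Library totals ranged from 37957385 to 71333471 counts in the time series and from 15600931 to 33989998 in the dose response. A floor of 3 counts was therefore 0.042 to 0.079 CPM (counts scaled to 1000000 in each library) in the first and 0.088 to 0.192 CPM in the second. The 9 pluripotency markers were all detected in every library, and their summed level was 8154 and 8610 CPM at 0 h and 3929 CPM at 42 h. LIN28A and POU5F1 made up 1806 and 1145 CPM of the sum at 42 h, and the markers did not move alike. NANOG went from 146 and 116 CPM at 0 h to 1.08 CPM at 42 h, and SOX2 from 389 and 375 to 11.6 CPM. POU5F1 lay between its 0 h libraries (1003 and 1721 CPM), and ZFP42 alone lay above both of its own, at 221 CPM. The summed level of the 10 amnion markers went from 35.6 and 40.1 CPM at 0 h to 7567 CPM at 42 h, and at 5 h it was 37.6 CPM in untreated cells, 594 CPM with BMP4 and no LDN and 85.9 CPM with 300 nM LDN added. At 5 h BAMBI made up 317 of the 594 CPM without LDN and 49.3 of the 85.9 CPM at 300 nM LDN. GABRP was lower with BMP4 and no LDN (0.905 CPM) than in untreated cells (2.88 CPM), and VTCN1 had 2 counts in both. The other amnion markers were higher with BMP4 and no LDN. Of the 7567 CPM at 42 h, HAND1 made up 2919 CPM and IGFBP3 2085 CPM. Of the 14 trophoblast markers, 6 were at 0 at 42 h. Their summed level was 47.4 and 47.7 CPM at 0 h and 320 CPM at 42 h, and TEAD3 alone made up 42.1, 42.7 and 313 CPM of it. In 0 h replicate 1, 7.60% of counts were mitochondrial, against 2.01% to 4.29% in the other time-series libraries, and the untreated library had 7.89% against 4.22% to 4.49% in the 5 libraries with BMP4. The part of these differences in the results was not tested. In bulk RNA, fewer cells of a type and less RNA per cell cannot be told apart. No time after 0 h and no dose had a replicate, and nothing in the labels says that the 0 h libraries are separate cultures, so p-values measure only the spread between these samples, which may be technical.

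Start-site windows of 4 of the 10 genes were present in the RefSeq sequence table (GRCh38.p14), from 250 bases before to 50 after the start. Of the genes with a window, H19 and DIO3OS had large changes over time and MEG3 stayed near 0. SNRPN was the most abundant of the 10 genes per length. For each of these 4 genes 1 window is shown. Each was searched on both strands for GGCGCC, a palindrome bound by BMP SMADs, CAGACA, the SMAD box, TGCCGC, the hexamer of ZFP57, and CCGCGNGG, part of the CTCF core. Capitals mark every match, and on the other strand TGCCGC reads GCGGCA and CAGACA reads TGTCTG.
H19, chr11:2001217-2001516, minus strand: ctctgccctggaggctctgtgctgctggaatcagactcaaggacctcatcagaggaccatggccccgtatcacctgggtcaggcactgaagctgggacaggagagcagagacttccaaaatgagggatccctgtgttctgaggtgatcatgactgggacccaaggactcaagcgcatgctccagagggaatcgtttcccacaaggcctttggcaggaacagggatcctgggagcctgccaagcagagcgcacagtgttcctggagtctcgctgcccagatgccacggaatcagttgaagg
DIO3OS, chr14:101560373-101560672, minus strand: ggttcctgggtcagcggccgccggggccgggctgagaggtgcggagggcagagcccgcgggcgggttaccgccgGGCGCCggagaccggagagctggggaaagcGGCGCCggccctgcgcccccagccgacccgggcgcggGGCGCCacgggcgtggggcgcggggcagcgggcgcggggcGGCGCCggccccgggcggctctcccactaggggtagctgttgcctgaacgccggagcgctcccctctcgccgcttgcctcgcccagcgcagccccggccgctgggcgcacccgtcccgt
MEG3, first of its 3 listed starts, chr14:100825858-100826157, plus strand: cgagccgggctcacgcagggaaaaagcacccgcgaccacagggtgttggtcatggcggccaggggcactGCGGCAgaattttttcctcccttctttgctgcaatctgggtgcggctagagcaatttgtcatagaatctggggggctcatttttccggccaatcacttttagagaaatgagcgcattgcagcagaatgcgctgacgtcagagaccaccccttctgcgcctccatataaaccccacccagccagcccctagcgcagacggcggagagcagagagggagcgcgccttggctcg
SNRPN, the third of its 4 listed starts and listed identically for SNURF, chr15:24954737-24955036, plus strand: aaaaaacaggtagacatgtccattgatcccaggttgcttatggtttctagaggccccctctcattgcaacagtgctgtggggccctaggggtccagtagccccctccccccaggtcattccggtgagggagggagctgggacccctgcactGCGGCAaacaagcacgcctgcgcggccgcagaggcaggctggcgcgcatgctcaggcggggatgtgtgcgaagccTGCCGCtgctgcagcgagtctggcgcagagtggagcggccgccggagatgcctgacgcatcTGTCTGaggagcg
The DIO3OS window held GGCGCC 4 times, had 81.7% G and C and contained 46 CG dinucleotides, against medians of 58.7% and 14 over all 35116 windows. GGCGCC occurred in 19.2% of all windows, and 3 or more times in 0.871%. The H19 window, the only start listed for it, held none of the 4 motifs. That window lies inside the gene span of chr11:1995166-2004552, and other starts of its 31 annotated transcripts were not searched. The MEG3 window held TGCCGC once and the SNRPN window held it 2 times, a hexamer present in 16.7% of all windows. The other 3 listed SNRPN starts differed, with TGCCGC in none of the first 2 and once in the last. CAGACA, present in 16.9% of windows, occurred once in the SNRPN window. CCGCGNGG, present in 11.0% of windows, occurred in none of the 4 windows shown. These matches describe letters and do not show binding.

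Before treatment the 10 genes ranged from 0 to 579 FPKM. Levels of different genes were compared per length, as the authors' FPKM (fragment counts scaled by gene length and library size), with mean ± SD over the 2 libraries at 0 h. SNRPN, a component of small nuclear ribonucleoproteins, was highest at 579 ± 79.7 FPKM (SD, n = 2), followed by PEG10, a retrotransposon-derived gene needed in the placenta, at 121 ± 32.7 FPKM (SD, n = 2). CDKN1C, a cyclin-dependent kinase inhibitor that restrains growth, had 11.4 ± 4.01 FPKM (SD, n = 2), and H19, a growth-restraining noncoding RNA, had 4.57 ± 1.12 FPKM (SD, n = 2). KCNQ1OT1, the antisense noncoding RNA that silences its domain on the paternal copy, had 1.12 ± 0.311 FPKM (SD, n = 2). IGF2, the fetal growth factor, had 0.685 ± 0.120 FPKM and DLK1, a membrane protein of the Notch ligand type, had 0.640 ± 0.113 FPKM (SD, n = 2 for both), and these 2 genes did not differ beyond their spread. MEG3 and DIO3OS each stood at 0.005 FPKM, the mean of a library at 0.01 and a library at 0, and PEG3 was at 0. At 42 h the order per length was SNRPN at 233 FPKM, PEG10 at 145 FPKM, CDKN1C at 76.7 FPKM, H19 at 58.5 FPKM, DIO3OS at 30.0 FPKM, IGF2 at 10.5 FPKM, DLK1 at 2.79 FPKM and KCNQ1OT1 at 0.65 FPKM. DIO3OS thus moved from the bottom of the order to above IGF2 and DLK1, and KCNQ1OT1 moved from above IGF2 to below DLK1. With 1 library at 42 h, no spread stands behind that second order.

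The time series asks how the genes changed while the cells differentiated in BMP4 without Wnt. In a trend with hours across all genes (edgeR quasi-likelihood test, Benjamini-Hochberg adjustment), 8 of the 10 genes had the mean of 1 CPM needed for testing. H19, IGF2, CDKN1C, DLK1 and DIO3OS rose, and SNRPN fell. KCNQ1OT1 and PEG10 did not pass the test, and MEG3 and PEG3 were too low to be tested. These were 6 calls of 8, of which 5 were rises, against 36.7% of all 15976 genes tested called in either direction and 19.2% called as rising. DIO3OS was near 0 at the start and passed the filter only through the late libraries, so that its change was implied by its being tested. Without it, 5 of 7 genes were called, of which 4 were rises. The median fitted change over 42 h was 2.23 on the log2 scale over the 8 genes and -0.0047 over all genes. Among all genes, 3072 rose and 2793 fell with TMM scaling, against 2112 and 4072 when libraries were scaled by their totals, which moved the median of all genes to -0.24. No call of direction among the 8 genes turned with that scaling, and CDKN1C lost its call. Without 0 h replicate 1 the same genes were called except CDKN1C, and without the 42 h library DIO3OS, DLK1 and SNRPN were called.

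**Figure D1:**
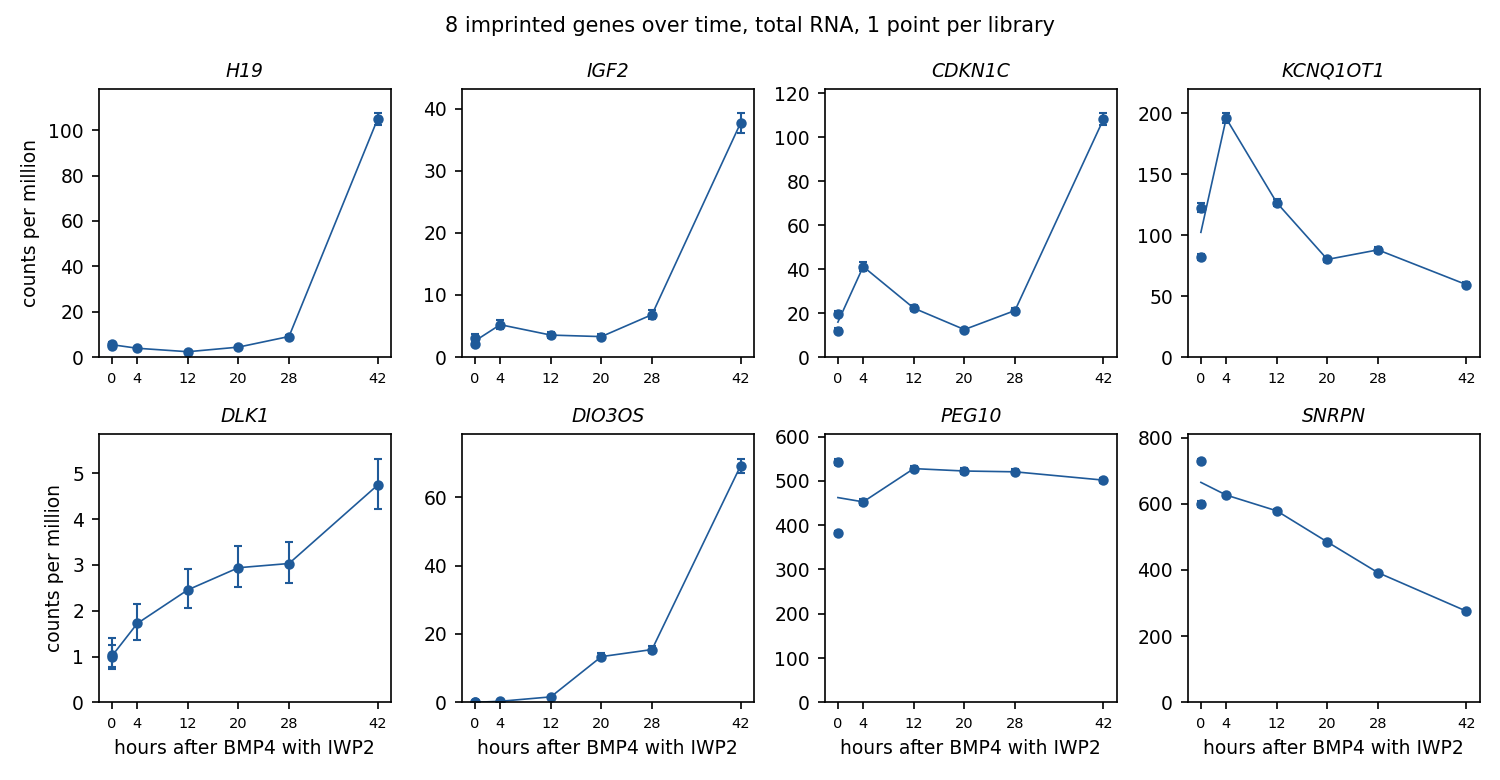
CPM (linear axis from 0) of 8 imprinted genes against hours after BMP4 with IWP2, 1 point per library, with 95% intervals that cover counting error only; lines pass through the mean of the 2 libraries at 0 h. H19, IGF2, CDKN1C and DIO3OS have their highest point at 42 h, KCNQ1OT1 has its highest at 4 h, DLK1 climbs and SNRPN declines across the series.

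H19 and IGF2 are neighbours on chromosome 11 that share enhancers, H19 at chr11:1995166-2004552 and IGF2 at chr11:2129112-2158391, both on the minus strand (GRCh38, GENCODE release 44). H19 stood at 5.88 and 4.99 CPM in the 0 h libraries, 3.86 CPM at 4 h, 2.33 CPM at 12 h, 4.36 CPM at 20 h, 9.04 CPM at 28 h and 105 CPM at 42 h. It was thus lowest at 12 h, below both 0 h libraries, and far above every other library at 42 h. Against 0 h, with time as a factor in the same tool, H19 was lower at 12 h by -1.26 ± 0.35 (log2, SE, adjusted p = 0.0051) and higher at 42 h by 4.51 ± 0.31 (log2, SE, adjusted p = 9.1e-45). At 28 h the difference was 0.81 ± 0.31 (log2, SE, adjusted p = 0.048), and it did not pass in 3 of 4 alternatives, with adjusted p from 0.0495 to 0.139 over the 4. The trend over 42 h was 4.28 ± 0.85 (log2, SE, adjusted p = 0.0060), and without the 42 h library it was 0.97 (adjusted p = 0.39). It passed in 11 of 13 alternatives, and a limma test on log2(FPKM + 0.1) was the other that did not call H19. IGF2 stood at 3.06 and 2.10 CPM at 0 h, 5.21 CPM at 4 h, 3.53 CPM at 12 h, 3.28 CPM at 20 h, 6.82 CPM at 28 h and 37.7 CPM at 42 h. All 5 later libraries lay above both 0 h libraries. IGF2 was higher at 28 h by 1.49 ± 0.32 (log2, SE, adjusted p = 3.4e-05) and at 42 h by 4.12 ± 0.32 (log2, SE, adjusted p = 2.1e-36), while the 4 h value of 0.94 ± 0.33 did not pass (adjusted p = 0.072). Its trend of 3.55 ± 0.58 (log2, SE, adjusted p = 0.0026) became 1.51 without the 42 h library (adjusted p = 0.13). In counts, the 42 h level was 19.8 times the pooled 0 h level for H19 (95% interval 18.2 to 21.6) and 15.5 times for IGF2 (95% interval 13.6 to 17.6). These intervals cover counting error only, and the ratio of H19 depended on the unit by more than its interval. In FPKM, H19 went from a mean of 4.57 at 0 h to 58.5 at 42 h, a smaller ratio. The readthrough gene INS-IGF2, which shares 1460 exon bases with IGF2 on the same strand, was at 0 in all 13 libraries.

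CDKN1C (chr11:2883213-2885775) and KCNQ1OT1 (chr11:2597308-2700003) share the second domain on chromosome 11, where KCNQ1OT1 runs antisense within KCNQ1. The 2 genes KCNQ1OT1 and KCNQ1 share 121 exon bases. Since the strand setting of the counting is not given, reads from unspliced KCNQ1 RNA cannot be kept apart from KCNQ1OT1 with certainty. CDKN1C stood at 12.0 and 19.8 CPM at 0 h, 41.1 CPM at 4 h, 22.2 CPM at 12 h, 12.5 CPM at 20 h, 21.1 CPM at 28 h and 108 CPM at 42 h. It was highest at 4 h and at 42 h, and the 20 h library lay between the 0 h libraries. The difference from 0 h was 1.29 ± 0.31 at 4 h (log2, SE, adjusted p = 0.0011) and 3.0 ± 0.31 at 42 h (log2, SE, adjusted p = 7.6e-21), and it did not pass at 12, 20 or 28 h. The trend of 2.17 ± 0.69 (log2, SE, adjusted p = 0.040) was lost in 8 of 13 alternatives, with adjusted p from 0.013 to 0.83 over the 13, and without the 42 h library it was -0.29. KCNQ1OT1 stood at 123 and 82.1 CPM at 0 h, 196 CPM at 4 h, 127 CPM at 12 h, 80.1 CPM at 20 h, 88.0 CPM at 28 h and 59.4 CPM at 42 h. Its highest level was at 4 h, where CDKN1C had its first high, and its lowest at 42 h, where CDKN1C was highest. Neither end passed the test: the 4 h difference was 0.85 ± 0.32 (log2, SE, adjusted p = 0.13) and the 42 h difference -0.55 ± 0.34 (log2, SE, adjusted p = 0.20). The trend of -0.87 ± 0.39 (log2, SE, adjusted p = 0.12) passed only when 0 h replicate 2 was left out, at -1.18 (adjusted p = 0.022). KCNQ1 stayed between 1.4 and 2.0 CPM in the time series, and of the domain's other genes SLC22A18, a membrane transporter gene, rose over 42 h by 2.34 ± 0.22 (log2, SE, adjusted p = 0.00021). PHLDA2, which restrains placental growth, was at 2.85 and 2.48 CPM at 0 h and 0.735 CPM at 42 h, and its trend of -1.23 ± 0.49 did not pass (adjusted p = 0.081), although 42 h alone did, at -1.61 ± 0.50 (adjusted p = 0.0052).

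The domain on chromosome 14 runs from DLK1 (chr14:100725705-100738224) through MEG3 (chr14:100779410-100861031) to DIO3OS (chr14:101552221-101620355), the antisense partner of DIO3. DIO3 codes for the type 3 deiodinase that inactivates thyroid hormone. DIO3OS had 0 and 1 counts at 0 h and 14 counts at 4 h, and its level was 0.309 CPM at 4 h, 1.59 CPM at 12 h, 13.4 CPM at 20 h, 15.4 CPM at 28 h and 69.1 CPM at 42 h. Every later library lay above both 0 h libraries, and each one was higher than the one before it. The 42 h level was 7556 times the pooled 0 h level, with a 95% interval from 1355 to 298522 that is wide because only 1 count stands at 0 h. Since the gene was tested only through its late libraries, no p-value is given for it. DIO3 followed the same order of libraries, from 0.132 and 0.308 CPM at 0 h to 1.46 CPM at 4 h, 4.14 CPM at 12 h, 39.0 CPM at 20 h, 85.0 CPM at 28 h and 613 CPM at 42 h. DIO3 lies within DIO3OS on the opposite strand, with 137 shared exon bases, and since the strand setting of the counting is not given, reads in the shared stretch cannot be assigned to 1 of the 2 with certainty.

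DLK1, at the other end of the domain, changed more gradually. It stood at 1.03 and 1.0 CPM at 0 h, 1.72 CPM at 4 h, 2.45 CPM at 12 h, 2.94 CPM at 20 h, 3.03 CPM at 28 h and 4.74 CPM at 42 h. The 2 libraries at 0 h were the lowest, and every step was upward. Its trend was 2.30 ± 0.33 (log2, SE, adjusted p = 0.0014), and it passed in all 13 alternatives. Against 0 h, DLK1 passed from 12 h on, at 1.24 ± 0.43 (log2, SE, adjusted p = 0.045) there, but DESeq2 called it at 42 h and not at 12, 20 or 28 h. MEG3, by contrast, had 11 counts in all 7 time-series libraries together, and its highest level was 0.110 CPM at 4 h. At 42 h MEG3 had no count, with a 95% counting interval that reaches 0.060 CPM. Low genes of the domain named after their values were seen are RTL1, a retrotransposon-derived gene needed in the placenta, which went from 0.053 and 0.126 CPM at 0 h to 2.78 CPM at 42 h, and the noncoding RNAs MEG8 and MEG9, which stayed at or below 0.132 CPM. At 42 h, RTL1 was 27.6 times its pooled 0 h level (95% interval 15.0 to 56.3). The coding genes DLK1, RTL1 and DIO3 and the antisense DIO3OS were thus all above their 0 h levels at 42 h, while MEG3, MEG8 and MEG9 had 0.049 CPM or less.

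**Figure D2:**
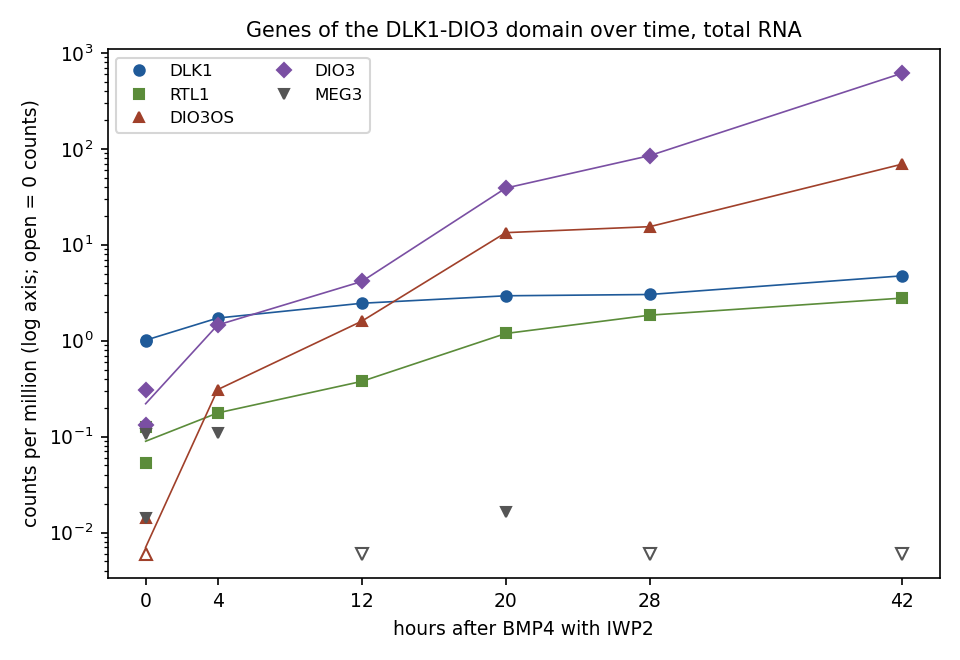
CPM (log axis) of 5 genes of the DLK1-DIO3 domain against hours after BMP4 with IWP2 in the total RNA libraries; each point is 1 library, lines pass through the mean of the 0 h libraries, and open symbols, drawn at 0.006, are libraries with no count. DIO3 and DIO3OS end at 613 and 69.1 CPM, DLK1 and RTL1 at 4.74 and 2.78 CPM, and MEG3 has no count at 12, 28 and 42 h.

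SNRPN and PEG10 were the 2 most abundant genes per length. SNRPN (chr15:24823637-24978723) stood at 599 and 730 CPM at 0 h, 626 CPM at 4 h, 579 CPM at 12 h, 485 CPM at 20 h, 392 CPM at 28 h and 275 CPM at 42 h. The libraries from 12 h on lay below both 0 h libraries, each lower than the one before. The trend was -1.01 ± 0.16 (log2, SE, adjusted p = 0.0023) and passed in all 13 alternatives, and of the single times 42 h passed, at -1.03 ± 0.36 (log2, SE, adjusted p = 0.014). SNHG14, the noncoding host transcript downstream of SNRPN that reaches antisense to UBE3A, fell from 3611 and 2387 CPM at 0 h to 677 CPM at 42 h, a trend of -1.99 ± 0.31 (log2, SE, adjusted p = 0.0019). SNURF, which shares 813 exon bases with SNRPN on the same strand, fell by 1.64 ± 0.43 (log2, SE, adjusted p = 0.020), and the split of reads between these 2 genes is uncertain. UBE3A, a ubiquitin ligase gene, fell by 0.48 ± 0.16 (adjusted p = 0.049), whereas NDN rose by 0.59 ± 0.15 (log2, SE, adjusted p = 0.015) and MAGEL2, at -0.34 ± 0.26, did not pass (adjusted p = 0.34). PEG10 (chr7:94656325-94669695) stood at 543 and 382 CPM at 0 h, 453 CPM at 4 h, 528 CPM at 12 h, 522 CPM at 20 h, 520 CPM at 28 h and 502 CPM at 42 h. In CPM on library totals, all later libraries lay between the 2 libraries at 0 h. With TMM scaling, which the trend used, the 28 h library lay slightly and the 42 h library clearly above both. The trend of 0.40 ± 0.20 (log2, SE) did not pass (adjusted p = 0.15). PEG3 (chr19:56810077-56840728), a zinc finger gene, had no count in any library, out of 391304809 counts in the time series and 175102269 in the dose response, which allows pooled levels of up to 0.0077 and 0.017 CPM. ZIM2, which shares 1264 exon bases with PEG3, was at 0 throughout as well.

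Single times are given with DIO3OS, called at every time, and without it, since it was tested only through its late libraries. At 4 h, 2 of the 8 genes were called (CDKN1C and DIO3OS), or 1 of 7 without DIO3OS, against 5.02% of all genes. At 12 h 3 of 8 were called (DIO3OS and DLK1 higher, H19 lower), or 2 of 7, against 9.68%. At 20 h the called genes were 2 of 8 (DIO3OS and DLK1), or 1 of 7, against 18.5% of all genes. At 28 h they were 4 of 8 (DIO3OS, DLK1, H19 and IGF2), or 3 of 7, against 20.3%, and at 42 h 6 of 8, or 5 of 7, against 37.7%. The 6 at 42 h were the 5 genes that rose and SNRPN. All these comparisons share the 0 h libraries, whose difference is the only measure of error, and the spread was shrunk to a value common to genes of similar level. At 42 h, 3173 genes were higher and 2851 lower with TMM, against 2412 and 3965 by library totals.

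**Figure D3:**
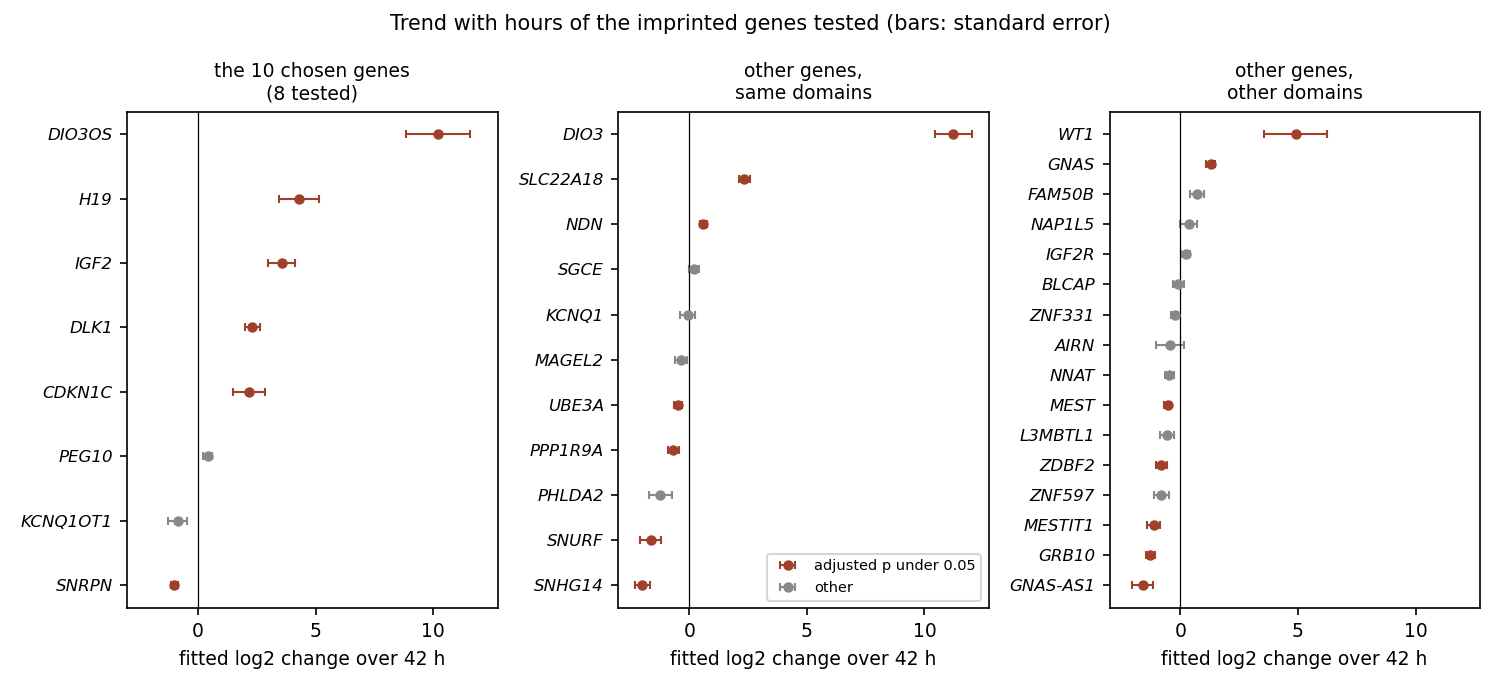
Fitted log2 change over 42 h (x axis) with its standard error for each tested gene, in 3 panels: the 10 chosen imprinted genes, 8 of them tested, other imprinted genes of the same domains and those of other domains; red marks an adjusted p under 0.05. DIO3OS (10.21) and DIO3 (11.24) lie far to the right, with fitted values that depend on near-zero counts at 0 h, and SNRPN and SNHG14 lie left of 0.

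The dose response asks which of these genes depended on BMP receptor activity within 5 h. CDKN1C and KCNQ1OT1 were higher with BMP4 and IWP2 than in untreated cells, and both came down as LDN was added. Of the 8 genes with a mean of 1 CPM in the time series, 7 reached it in the dose response as well, DIO3OS being too low. In a trend over the 5 doses with BMP4 (edgeR quasi-likelihood test), given as the fitted log2 change from 0 to 300 nM, 4 of 7 genes were called, against 21.3% of all 14877 genes tested. All 4 were lower at higher doses, as were 10.9% of all genes. They were CDKN1C, KCNQ1OT1, IGF2 and PEG10. The median fitted change over the 7 genes was -0.20 on the log2 scale, and that over all genes -0.0028. With no replicate at any dose, scatter about the line was the only measure of error, and a limma test on log2(FPKM + 0.1) called 0 of the 7 genes, of which 3 had an unadjusted p under 0.05.

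KCNQ1OT1 stood at 9.29 CPM in untreated cells, 26.1 CPM without LDN, 18.9 CPM at 10 nM, 16 CPM at 30 nM, 13.9 CPM at 100 nM and 13 CPM at 300 nM LDN. Each dose was lower than the one before, with overlapping counting intervals at 100 and 300 nM, and the highest dose stayed above the untreated library. The fitted change was -0.99 ± 0.11 (log2, SE, adjusted p = 5.9e-05), and it passed in 11 of 12 alternatives. Without LDN its level was 2.80 times the untreated one (95% counting interval 2.34 to 3.37). CDKN1C stood at 7.37 CPM in untreated cells, 24.4 CPM without LDN, 24.8 CPM at 10 nM, 23.8 CPM at 30 nM, 19.7 CPM at 100 nM and 14.5 CPM at 300 nM LDN. The first 3 doses were level and the decline lay at 100 and 300 nM, unlike KCNQ1OT1, which dropped most between 0 and 10 nM. The fitted change of CDKN1C was -0.70 ± 0.14 (log2, SE, adjusted p = 0.0039), and it was -0.37 without the 300 nM library (adjusted p = 0.11). Without LDN it stood at 3.30 times the untreated level (95% counting interval 2.71 to 4.06), and at 300 nM still at 1.97 times (95% counting interval 1.60 to 2.43). The separate time series had both genes higher at 4 h than in either 0 h library, where CDKN1C passed its test and KCNQ1OT1 did not.

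IGF2 stood at 2.05 CPM in untreated cells, 2.82 CPM without LDN, 3.0 CPM at 10 nM, 2.03 CPM at 30 nM, 1.99 CPM at 100 nM and 1.69 CPM at 300 nM LDN. The counting interval of its ratio without LDN over untreated, 0.902 to 2.14, includes no difference. The fitted change with dose was -0.82 ± 0.26 (log2, SE, adjusted p = 0.041), a call lost in 7 of 12 alternatives. PEG10 went from 413 CPM without LDN and 416 CPM at 10 nM to 396, 388 and 379 CPM at 30, 100 and 300 nM, next to 431 CPM in untreated cells. Its fitted change was -0.12 ± 0.04 (log2, SE, adjusted p = 0.038), was lost in 7 of 12 alternatives and ended at 0.04 with the untreated library added beyond the highest dose. H19 stood at 3.58, 3.97, 4.21, 4.57 and 4.86 CPM from 0 to 300 nM LDN and at 3.40 CPM in untreated cells. Each dose was higher than the one before, but the fitted change of 0.44 ± 0.17 (log2, SE) did not pass (adjusted p = 0.094).

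SNRPN stood between 766 and 788 CPM at all 5 doses and at 610 CPM in untreated cells, and its fitted change of 0.06 ± 0.03 (log2, SE) did not pass (adjusted p = 0.22). DLK1 ranged from 0.901 to 1.75 CPM over the doses without order, at 0.641 CPM in untreated cells, and its fitted change was -0.20 ± 0.37 (log2, SE, adjusted p = 0.74). DIO3OS had 10 counts without LDN, then 2, 5, 1 and 0 counts at 10, 30, 100 and 300 nM, and 0 counts in untreated cells. The ratio of the library without LDN to the untreated one had a 95% counting lower limit of 1.22. The highest of these libraries was the one without LDN, as it was for DIO3, which had 1.04 CPM there, 0.064 CPM in untreated cells and 0.265, 0.246, 0.129 and 0.091 CPM at the rising doses. MEG3 had 5 counts over the 6 libraries. Among the 7 genes tested, 3 differed at least 2-fold between BMP4 without LDN and untreated cells (CDKN1C, KCNQ1OT1 and DLK1), against 8.61% of all genes, with 1 library on each side and a median shift of all genes of 0.11 on the log2 scale. DLK1, at 2.23 times (95% counting interval 1.1 to 4.98), rested on 41 and 10 counts and was below 2-fold in FPKM. For H19 and IGF2 the direction turned with the unit. The log2 ratio of H19 was 0.08 in CPM and -0.98 in the authors' FPKM, and that of IGF2 was 0.46 in CPM and -0.12 in FPKM.

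**Figure D4:**
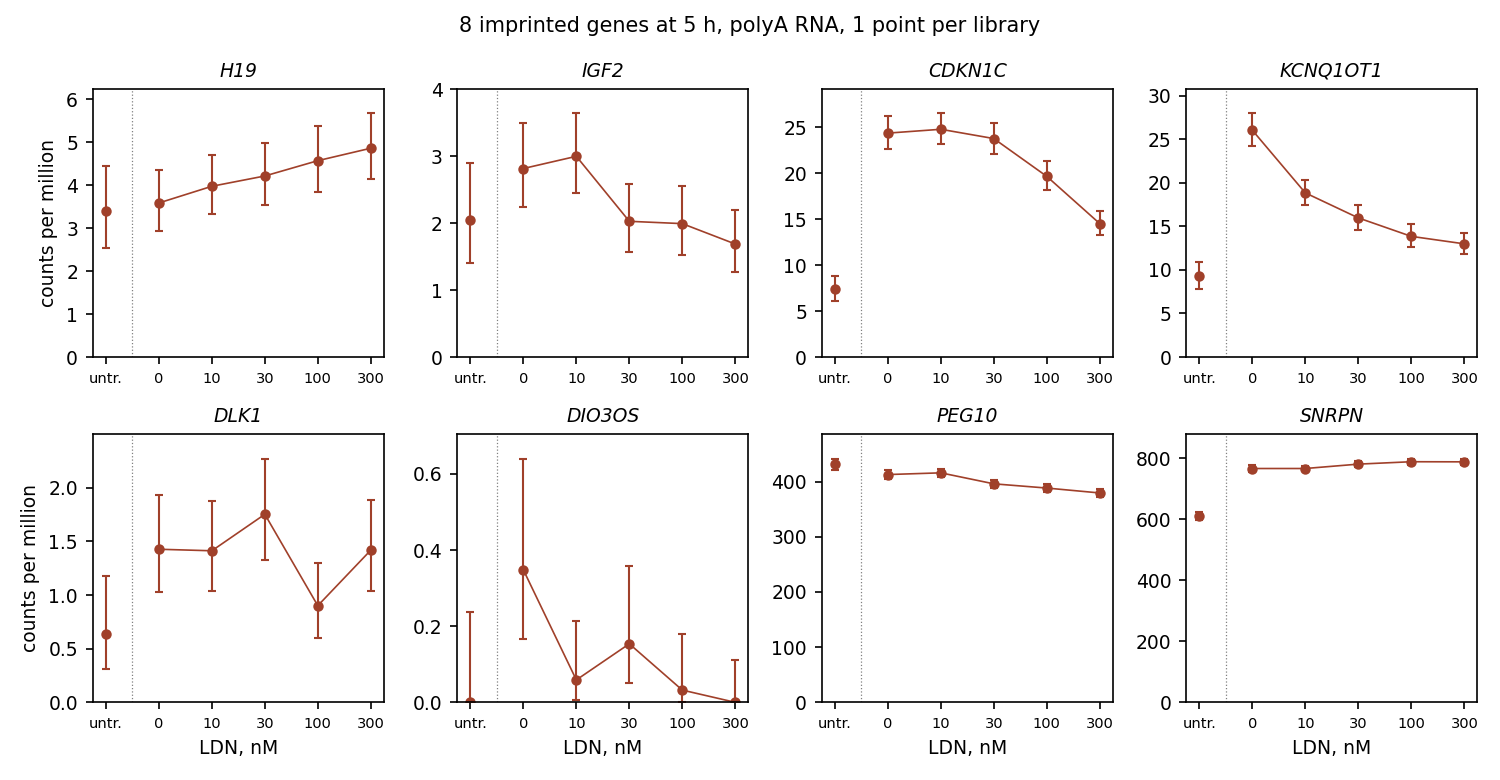
CPM (linear axis from 0) of 8 imprinted genes at 5 h in polyA RNA, in untreated cells (left of the dotted line) and with BMP4, IWP2 and 0 to 300 nM LDN, 1 point per library, with 95% intervals that cover counting error only. KCNQ1OT1 declines from 26.1 to 13 CPM and CDKN1C from 24.4 to 14.5 CPM, both above the untreated library, while SNRPN stays between 766 and 788 CPM at all doses.

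Of the 10 genes, 1 differed strongly in level between total RNA and polyA RNA. KCNQ1OT1 was at 123 and 82.1 CPM in total RNA at 0 h and at 9.29 CPM in polyA RNA of untreated cells, an 11.0-fold difference, and at 196 CPM in total RNA at 4 h against 26.1 CPM in polyA RNA at 5 h, a 7.52-fold difference. Relative to the median ratio of all genes, it was higher in total RNA by 3.36 and 2.81 on the log2 scale, at the 97.3 and 97.6 percentiles of all genes. For the pair at 0 h, 5.42% of genes differed at least 4-fold in either direction after the median was taken off, and for the pair at 4 and 5 h 4.73%. KCNQ1OT1 was the only 1 of the 7 genes with counts in every library that did so, in both pairs. The other 6 lay between -0.39 and 1.0 on the same log2 scale, and H19, a polyadenylated noncoding RNA, differed by 0.57 and 0.0069. The noncoding RNAs MESTIT1 and AIRN of other imprinted domains moved the same way: MESTIT1 was 11.8-fold higher in total RNA at 0 h, and AIRN had 1.55 and 0.757 CPM there and no count in untreated cells. The MESTIT1 ratio rested on 5 counts in the untreated library. Of the other noncoding RNAs of the lists, H19, SNHG14 and GNAS-AS1 had a ratio in both pairs. They stayed below 4-fold after the median was taken off, and the rest were too low in these libraries to judge. SNHG14, far more abundant, was at 0.73 and 0.90 on the same log2 scale, and GNAS-AS1 at 1.55 and 1.95. Reads from unspliced KCNQ1 RNA may be counted for KCNQ1OT1, as the strand setting is not given, and their part in its difference was not tested. Preparation, extraction kit, culture and hours cannot be told apart between the tables, and no test was made across them.

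**Figure D5:**
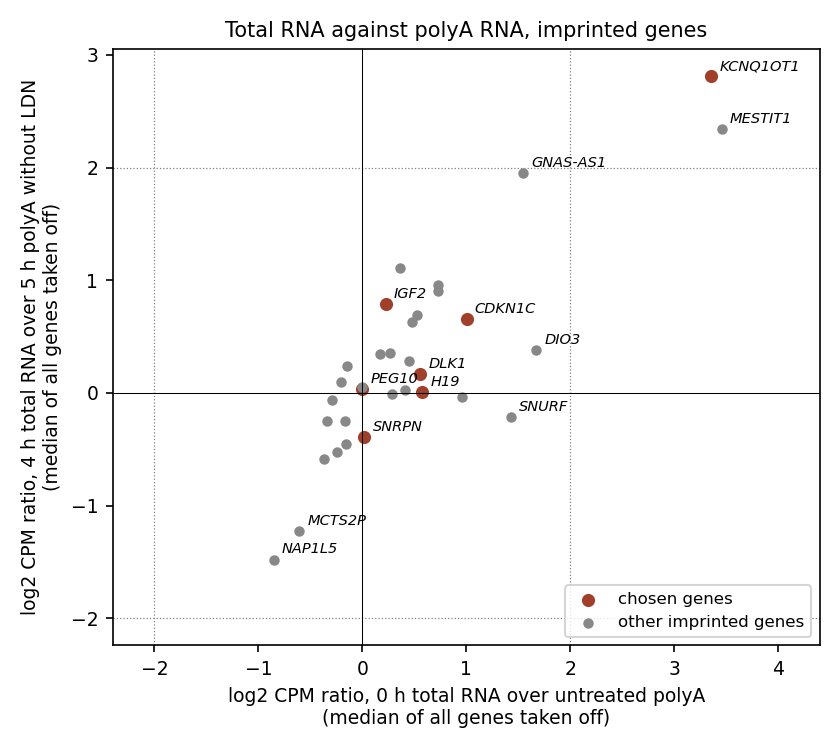
Log2 ratio of CPM between total and polyA RNA after the median of all genes was taken off, for 0 h over untreated (x axis) and 4 h over 5 h without LDN (y axis), 33 imprinted genes with counts in all these groups, 7 of them the chosen genes (red); dotted lines mark 4-fold. KCNQ1OT1 (3.36 and 2.81) and MESTIT1 lie past 4-fold on both axes, and the other 6 chosen genes lie inside.

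Other imprinted genes were read from lists of symbols. Of 23 further genes of the same domains, 11 were tested over time, 3 rose (DIO3, SLC22A18 and NDN) and 4 fell (SNHG14, SNURF, PPP1R9A and UBE3A), with a median fitted change of -0.34 on the log2 scale. Calls in either direction were made for 36.7% of all genes. Of 24 genes of other domains found in the files, 16 were tested, 2 rose and 5 fell, with a median of -0.46. The 2 that rose were WT1, a transcription factor gene of the kidney and mesothelium, from 0 and 0.028 CPM at 0 h to 7.04 CPM at 42 h, and GNAS, the stimulatory G protein gene, by 1.3 ± 0.19 (log2, SE, adjusted p = 0.0015). WT1 reached the mean of 1 CPM only through the 42 h library and DIO3 only through the libraries from 20 h on, so that for both a rise was implied by their being tested. The 5 that fell were GNAS-AS1 (-1.60), GRB10 (-1.27), MESTIT1 (-1.13), ZDBF2 (-0.80) and MEST (-0.55), all as fitted log2 change over 42 h. Against LDN dose, where 21.3% of all genes were called, 2 of 10 tested genes of the same domains were called, PHLDA2 higher with dose by 1.19 ± 0.35 (log2, SE, adjusted p = 0.029) and SNHG14 lower by -0.18 ± 0.04 (log2, SE, adjusted p = 0.0060), and 1 of 14 of the other domains, GNAS, at -0.22 ± 0.04 (log2, SE, adjusted p = 0.0017). Of 8 genes that maintain imprints or DNA methylation, 7 were tested over time, and HELLS, a chromatin remodeller of DNA methylation, fell by 1.62 ± 0.37 (log2, SE, adjusted p = 0.012). ZFP57, which protects imprints, was at 0.580 and 0.547 CPM at 0 h, 3.04 CPM at 20 h and 0.065 CPM at 42 h, and its straight trend of 0.03 ± 1.90 does not describe that course. The difference of ZFP57 at 42 h from 0 h was -2.83 ± 0.77 (log2, SE). It rested on 1 library in which ZFP57, at 0.065 CPM, stood just above the floor of 0.049 CPM. DNMT1, the maintenance DNA methyltransferase, stayed between 284 and 379 CPM in the time series.

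The genes closest in course to each of 8 genes were taken as those with a mean of 10 CPM or more and the smallest root mean square difference of CPM, divided by its maximum, over the 6 time points of the same libraries. For H19 they were LRRC32 (difference 0.019), IGFBP7 (0.022) and AFAP1L2 (0.024), of which IGFBP7 went from 0.474 and 0.855 CPM at 0 h to 86.0 CPM at 42 h. For IGF2 they were MXRA8 (0.020), ENC1 (0.027) and BOC (0.030). DIO3OS was closest to TINAGL1 (0.030), FUT8-AS1 (0.041) and HTRA3 (0.045), and DLK1 to SNX18 (0.037), WFIKKN1 (0.046) and IRS1 (0.048). SNRPN was closest to XPR1 (0.023), MTPAP (0.027) and MRPL42 (0.028), and PEG10 to ELMO2 (0.026), HMCES (0.026) and SERINC3 (0.029). CDKN1C and KCNQ1OT1 had more distant neighbours, SYNM (0.055), TSPAN5 (0.060) and PLEKHA7 (0.064) for the first and SGTB (0.062), the unnamed gene ENSG00000215158 (0.064) and FBN1 (0.067) for the second. No other imprinted gene of the lists was among these neighbours, but this could hardly have come out otherwise. The limit of 10 CPM kept IGF2 (mean 8.81 CPM), DLK1 (mean 2.41 CPM) and others from being neighbours, and each gene had only 3 places. Nothing about imprinted genes as a group follows from it.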

How the data were processed

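Total RNA depleted of ribosomal RNA (7 libraries) and polyA RNA (6 libraries) had been extracted with different kits. After trimming (Cutadapt), the authors aligned reads with STAR 2.7.8a to the GRCh38 genome and quantified genes by RSEM 1.3.3, and the annotation release and strand setting are not given in the sources used here. Deposited were expected counts from RSEM, whole numbers without depth scaling, and FPKM, which the authors normalised for length and depth. CPM was computed on the library total. Testing covered genes whose mean reached 1 CPM and used edgeR 4.0.16 (R 4.3.3; quasi-likelihood, TMM, Benjamini-Hochberg over all genes tested, calls at an adjusted p under 0.05): a trend with hours, each time against 0 h, and a trend over the 5 LDN doses as equal steps. With time as a factor only 1 residual degree of freedom was left, and the spread was shrunk fully to the trend over all genes, so each lone library was assumed to vary like the others. DESeq2 1.42.0 and limma 3.58.1, on log2(FPKM + 0.1), served as alternatives, next to other scalings, no filter, ranks of time, the SMAD4 signal of the study in place of the dose step, the untreated library added and each library left out. Intervals are at 95%, exact for counts, and cover counting error only, as does the floor of 3 counts. The tests were run on simulated data with 1 small spread set for all genes. CDKN1C and KCNQ1OT1 spread more between the 0 h libraries (SD of log2 0.51 and 0.41). The simulation therefore does not show how the tests behave at the spread of these data. The 0 h libraries differed by far more than sampling noise (chi-square per degree of freedom 107), and both were kept. The 10 genes, all lists of genes and the tests were chosen with earlier results of these data known. By rule, all 10 genes were named, genes of their domains where the mean was at least 1 CPM in either table, up to 10 called genes of other domains, and the 3 genes closest in course. Gene positions are from GENCODE release 44, and start-site windows from RefSeq (GRCh38.p14). The features cre, egfp, eyfp, mcherry and tdtomato stayed in the totals and out of the tests. Other software was matplotlib 3.10.9, scipy 1.17.1, pandas 2.3.3 and numpy 2.4.6 under Python 3.11.15.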

Additional observations from a re-analysis of the deposited data

How the results depend on the processing

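The trend with hours called 6 of the 8 genes tested in the main analysis, or 5 of 7 without DIO3OS. Under the other scalings, tests and filters it called 4 to 6, with 5348 to 6839 of all genes called. When 1 library was left out it called 3 to 6, with 3343 to 6621 of all genes called. DIO3OS, which passed the main filter only through its late libraries, was among the called genes in all 13 alternatives. Without the 42 h library the calls of H19, IGF2 and CDKN1C were lost and CDKN1C turned to -0.29 (log2, up to 2.64 without the 4 h library). DESeq2 called 1 of the 8 genes at 20 h and 2 at 28 h, in place of 2 and 4. Over all genes it called 1398 higher and 635 lower at 20 h, in place of 1989 and 960. At 28 h it called 1613 higher and 783 lower, in place of 2123 and 1125. Its calls over all genes at 4 h and 12 h were 455 and 971, in place of 802 and 1547. The trend with LDN dose called 4 of 7 genes, and limma on FPKM called 0 (3 at an unadjusted p under 0.05). Over all genes limma called 1075 in place of 3166. Adding the untreated library left 2 of the 7 genes, and over all genes 1001 higher and 1151 lower with dose. Leaving out 1 dose gave 1 to 3 calls among the 7 genes and 1997 to 2965 over all genes: without 300 nM KCNQ1OT1 alone was called. Turned directions were DLK1 at 0.04 without 100 nM (from -0.53 without 300 nM), and PEG10 at 0.04 and SNRPN at -0.12 with the untreated library added. The cause of these shifts was not tested. DLK1 and SNRPN kept their trend with hours in all 13 alternatives, and KCNQ1OT1 kept its trend with dose in 11 of 12. With TMM scaling H19, CDKN1C, PEG10 and SNRPN stood at 121, 125, 579 and 318 CPM at 42 h. No paired analysis was possible because only 0 h has 2 libraries. Depth limits MEG3, PEG3 and, in the dose response, DIO3OS.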
